A study of Arabidopsis thaliana with 16 samples.

Results

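Messenger RNA recovered with polysomes was compared with total mRNA in Arabidopsis thaliana seedlings that had spent 24 h at 4 °C. The comparison used 2 libraries of polysomal RNA and 3 libraries of mRNA from cold-treated seedlings, 5 of the 16 samples of the series. All seedlings were 20 days old and of the Col-0 ecotype, and had been raised on agar plates at 22 °C with 12 h of light per day. Libraries from untreated seedlings of the same age, 2 polysomal and 3 of mRNA, served as a second comparison. The mRNA libraries were made from mRNA that had been isolated and chemically broken into fragments of about 100 nt, as the inputs of an m6A immunoprecipitation. The polysomal libraries carry the label total RNA, and how polysomes were isolated is not given in the sources used here. The fraction and the way its libraries were made therefore cannot be told apart in any ratio below. Whether replicates were grown separately is not stated in the labels, so the spread behind each p-value is that among these libraries and may be technical.

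A polysome is an mRNA with several ribosomes on it, so the share of a transcript found in polysomes is commonly read as a measure of how actively it is translated. In the cold, plants make dehydrins and other hydrophilic protective proteins from cold-regulated (COR) genes and adjust photosynthesis and the synthesis of ribosomes. Transcripts of the chloroplast and mitochondrial genomes are translated on ribosomes inside those organelles, and non-coding RNAs have no long reading frame to fill with ribosomes. Short upstream reading frames (uORFs) that encode conserved peptides are known to hold back translation of the main reading frame in several plant genes.

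Counts on genes totalled 22200225 and 12984431 in cold polysome replicates 1 and 2, against 10174359, 10368768 and 3282574 in cold mRNA replicates 1 to 3. Genes took 93.4% and 93.8% of the tallied reads in the polysome libraries, and 25.8%, 31.2% and 6.60% in the mRNA libraries, where 61.9% to 82.2% of reads had no unique alignment. Cold mRNA replicate 3 stood apart, with 14.1% of its gene counts on chloroplast genes, against 4.70% and 4.61% in replicates 1 and 2. The 2 cold polysome libraries also differed from each other, with a chi-square per degree of freedom of 70.8 over genes. Between cold mRNA libraries it was 12.2 to 54.1. This statistic is taken on raw counts and rises with depth, which was greater in the polysome libraries, so it does not rank the pairs. Counts and medians of the classes below moved when single libraries were left out, and many of these moves are given beside them.

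Of 18941 genes tested, 232 were rich in cold polysomes (1.22% of genes tested) and 924 were poor (4.88%), where rich and poor mean a polysome to mRNA ratio above or below 1 at an adjusted p of at most 0.05 in edgeR's quasi-likelihood test. Nuclear protein-coding genes made up 231 of the rich genes and 738 of the poor ones. At an unadjusted p below 0.05 there were 1896 and 2699. The number of rich genes was 37, 11 and 35 without cold mRNA replicates 1, 2 and 3, and 815 and 39 without cold polysome replicates 1 and 2. The number of poor genes was 433, 408 and 666 without those mRNA libraries, and 1249 and 310 without those polysome libraries. As shares of the genes tested, poor genes were then 2.3%, 2.17% and 3.51% without the mRNA libraries, and 6.39% and 1.59% without the polysome libraries. Rich genes were 0.197%, 0.0584% and 0.184% of the genes tested without mRNA replicates 1, 2 and 3, and 3.76% with DESeq2. Scaling by library totals in place of TMM factors gave 56 rich and 949 poor genes. Rich genes then made up 5.57% of the calls, against 20.1% with TMM.

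Leading genes were chosen among rich or poor nuclear coding genes averaging 4 or more in log2 CPM, with no overlap of CPM between groups. The 8 richest of them included 2 classic cold- and drought-induced genes. LTI78 (AT5G52310, also called RD29A), which encodes a hydrophilic protein strongly induced by cold and drought, had 3232 and 8072 CPM in cold polysomes, against 578, 551 and 396 CPM in cold mRNA. CPM (counts scaled to a common library size with TMM factors) compare a gene between libraries and are not corrected for gene length. The groups did not overlap, a condition of the choice, and the log2 ratio was 3.47 ± 0.42 (SE, edgeR adjusted p = 0.00299). RAB18 (AT5G66400), a dehydrin that responds to abscisic acid, had 44.2 and 105 CPM in polysomes and 30.8, 21.5 and 24.4 CPM in mRNA, a log2 ratio of 1.54 ± 0.35 (edgeR adjusted p = 0.0398). In both genes polysome replicate 2 was the higher polysome library.

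The other 6 leading rich genes had varied roles. AT3G01345, annotated as an uncharacterized protein, had 382 and 116 CPM in polysomes, while the mRNA libraries held 1.96, 0.174 and 0 CPM. Its log2 ratio of 8.09 ± 1.05 was the highest among these genes (edgeR adjusted p = 0.0222), and in untreated seedlings it was 11.52. PAP17, a purple acid phosphatase that releases phosphate, had 43.8 and 145 CPM in polysomes and 25.8, 19.8 and 15.1 CPM in mRNA. Its log2 ratio was 2.20 ± 0.49 (edgeR adjusted p = 0.0475), against -0.51 in untreated seedlings. SQS2, squalene synthase 2, reached 27.6 and 37.2 CPM in polysomes and 14.2, 9.37 and 5.03 CPM in mRNA. G-TMT, the methyltransferase that completes alpha-tocopherol (vitamin E), reached 40.9 and 77.6 CPM in polysomes and 22.0, 17.2 and 20.8 CPM in mRNA. The log2 ratios of these enzymes were 1.68 for SQS2 and 1.57 for G-TMT. AT5G17460, annotated as subunit C of a glutamyl-tRNA amidotransferase, and AT4G12340, annotated as a copper ion binding protein, had log2 ratios of 1.60 and 1.65.

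Chosen in the same way, the 8 genes with the lowest ratios included an extensin-like protein, 2 peroxidases and a transporter. Some less abundant genes had lower ratios, such as AT4G08400 with a log2 ratio of -5.67. JAL34, a jacalin-related lectin that binds mannose, had 8.99 and 7.23 CPM in cold polysomes, against 80.9, 75.4 and 93.1 CPM in cold mRNA. Its log2 ratio of -3.35 ± 0.24 had the lowest adjusted p of the 16 leading genes (edgeR adjusted p = 0.000204). AT2G43150, a proline-rich extensin-like protein of the cell wall, had 51.9 and 53.2 CPM in polysomes and 269, 325 and 1089 CPM in mRNA, where replicate 3 was far above the other two. Class III peroxidases, secreted enzymes that act on the cell wall and on hydrogen peroxide, gave 2 of the 8. AT5G17820 had 6.62 and 2.52 CPM in polysomes and 46.5, 36.7 and 39.2 CPM in mRNA, and AT4G30170 had 10.4 and 5.12 CPM in polysomes and 50.8, 41.3 and 49.6 CPM in mRNA. Their log2 ratios were -3.12 ± 0.39 and -2.58 ± 0.32. ABCB15, an ABC transporter of the plasma membrane, had 3.89 and 4.30 CPM in polysomes and 22.3, 26.4 and 36.3 CPM in mRNA, a log2 ratio of -2.77 ± 0.29.

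The remaining leading poor genes were AT4G30150, AT1G07590 and AT4G05631. AT4G30150 belongs to the Urb2/Npa2 family, whose yeast member Urb2 acts in the assembly of the large ribosomal subunit. It had 11.2 and 2.92 CPM in polysomes and 50.9, 49.8 and 39.9 CPM in mRNA, a log2 ratio of -2.70 ± 0.52. AT1G07590, a protein with tetratricopeptide-like repeats, had 92.1 and 27.1 CPM in polysomes and 607, 607 and 388 CPM in mRNA. AT4G05631, an uncharacterized protein, had 1.83 and 1.38 CPM in polysomes and 61.7, 50.5 and 21.6 CPM in mRNA, and its log2 ratio of -4.79 was the lowest of the 8. The 8 poor genes had the same sign of ratio in untreated seedlings.

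**Figure D1:**
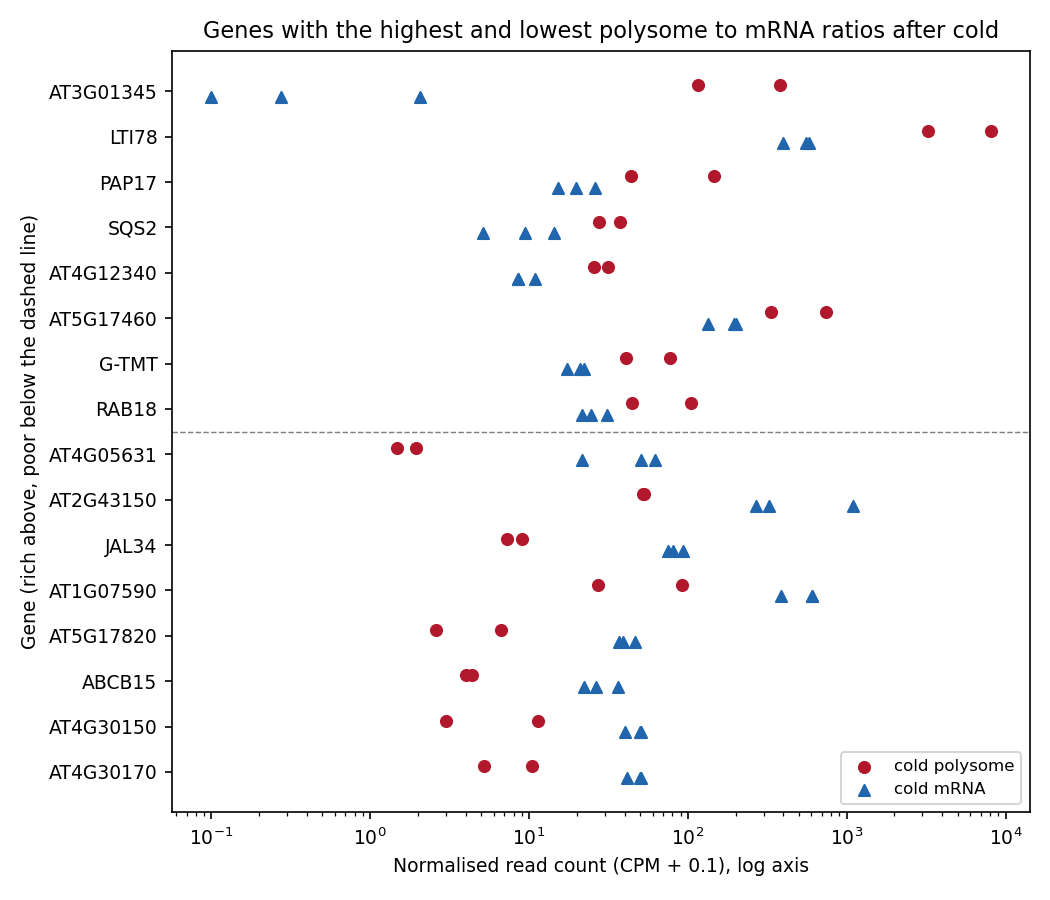
Normalised read count (CPM + 0.1, log axis) in each cold library for the leading genes. These are the 8 with the highest and the 8 with the lowest polysome to mRNA ratio among called nuclear coding genes averaging 4 or more in log2 CPM. Circles mark the 2 polysome libraries and triangles the 3 mRNA libraries. The 2 symbols do not overlap for any gene, a condition of the choice, and LTI78 stands at 3232 and 8072 CPM in polysomes against at most 578 CPM in mRNA.

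Of these 16 genes, 6 stayed past the threshold with any 1 library left out, namely LTI78, AT4G12340, JAL34, AT5G17820, ABCB15 and AT4G30170. For LTI78 the log2 ratio then ranged from 2.68 to 4.01, and for JAL34 from -3.49 to -3.19. RAB18, PAP17 and AT5G17460 lost the call without cold mRNA replicate 1, 2 or 3 or cold polysome replicate 2, with adjusted p up to 0.147, 0.148 and 0.103. SQS2 lost it without cold mRNA replicate 2 or cold polysome replicate 2 (adjusted p up to 0.115), and G-TMT without cold mRNA replicate 2 or 3 or cold polysome replicate 2 (up to 0.069). AT3G01345 and AT4G05631 lost it without cold polysome replicate 2 (0.0685 and 0.0595). AT2G43150 lost it without either polysome library (up to 0.357), and AT1G07590 and AT4G30150 without cold mRNA replicate 1 or 2 (up to 0.0588 and 0.0946). All of these adjusted p-values are from edgeR, and no ratio changed sign.

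The bases around the start codon, where the scanning ribosome begins translation, are shown for 4 rich and 4 poor genes because the leading genes differ in polysome occupancy and start context is a feature of the transcript that the ratio did not use. Each window is 27 bases of the RefSeq annotation of TAIR10.1, read 5′ to 3′ on the coding strand, with 12 bases before the ATG. Capitals mark the base at position -3, the ATG and the base at position 4, counted from 1 at the A of the ATG. The first 4 genes were rich in cold polysomes and the last 4 poor.
LTI78: aatctttggAaaATGGatcaaacagag
RAB18: gacaagaagAacATGGcgtcttaccag
PAP17: tgatcaataAttATGAattctggtcgt
SQS2: ctgtttctaAaaATGGgaagcttgagt
JAL34: aagtcaacaAcgATGTcttgggacgat
AT5G17820: caaccccaaAaaATGAtgaagggtgcc
ABCB15: acacacaagAaaATGGgtaaagaagag
AT4G30170: attgaattaGccATGGagaagaatact
The windows lie at chr5:21240917-21240943 (plus strand) for LTI78, chr5:26519139-26519165 (minus strand) for RAB18, chr3:6089767-6089793 (plus strand) for PAP17 and chr4:16542365-16542391 (plus strand) for SQS2. Those of the poor genes lie at chr3:5593017-5593043 (plus strand) for JAL34, chr5:5890087-5890113 (minus strand) for AT5G17820, chr3:10598761-10598787 (minus strand) for ABCB15 and chr4:14762910-14762936 (plus strand) for AT4G30170. All 8 have a purine at position -3, but this depends on which leading genes are shown. Of the leading rich genes not shown, AT3G01345 has C and G-TMT has T at that position, while AT5G17460 has A. The leading poor genes AT2G43150, AT1G07590 and AT4G30150, also not shown, have A, G and A.

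Across all genes with a window, the shares differed little at position -3 and more just after the ATG. A purine at position -3 was present in 79.6% of 206 rich genes and 78.9% of 536 poor genes, against 74.2% of 15240 nuclear coding genes. G at position 4 was present in 64.6% of rich and 58.8% of poor genes, against 58% of all. G at position 4 followed by C at position 5, as in RAB18, was present in 39.3% of rich and 28.9% of poor genes, against 25.2% of all. These are shares of genes, given as a description with no test.

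Rich genes encoded shorter proteins than the other genes at the median. The median protein of the 226 rich nuclear genes at or above an average log2 CPM of 1 was 246 amino acids long, against 419.5 for the 602 poor genes and 393 for all 16901. Among 5 equal bins of protein length, the share of rich genes was 2.66% in the shortest bin, then 2.31%, 1.04% and 0.562%, and 0.118% in the longest, where proteins had at least 640 amino acids. Poor genes made up 3.93%, 3.28%, 2.6%, 2.9% and 5.09% of the bins from the shortest to the longest, highest at both ends. The median log2 ratio was 0.09, 0.20, 0.12, 0.04 and -0.21 from the shortest to the longest bin, and 0.04, 0.20, 0.11, 0.06 and -0.13 in untreated seedlings. The 5′ UTR was a little shorter in rich genes, with a median of 150 nt against 177.5 nt in poor genes and 190 nt in all. Fragmentation and priming of the libraries can act on transcript length, and their part in these values was not tested.

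**Figure D2:**
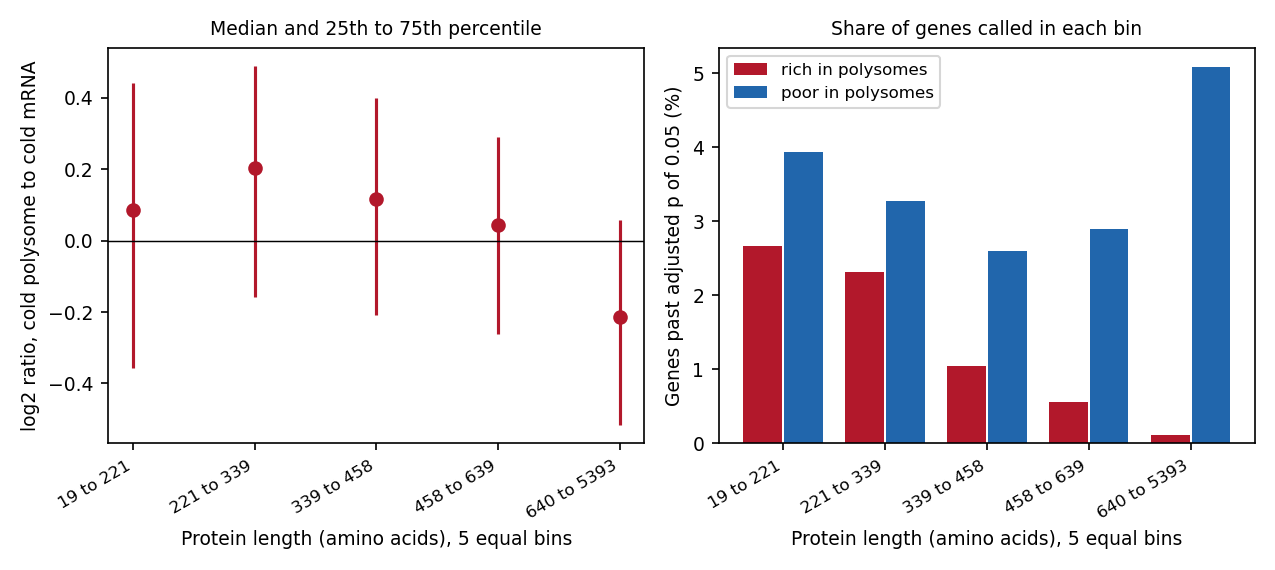
Polysome to mRNA ratio by protein length in cold-treated seedlings, in 5 equal bins of 16901 nuclear coding genes. The left panel gives the median log2 ratio with the 25th to 75th percentile of genes, which falls to -0.21 in the longest bin, and the right panel gives the percent of genes rich (2.66% to 0.118%) and poor in polysomes.

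Genes for protective proteins of the cold response stood towards the rich end, in cold and in untreated seedlings alike. Of 21 tested members of a list of COR and late embryogenesis abundant (LEA) genes, 4 were rich (19%) and 1 was poor (4.76%) in cold. The shares over all genes tested were 1.22% and 4.88%. The median log2 ratio was 0.86, against -0.01 over all genes tested. In untreated seedlings 12 of 20 tested members were rich and 3 poor, with a median of 1.21, where 14.8% of all genes were rich. Besides LTI78 and RAB18, the rich members in cold were COR15A and COR15B, which encode small proteins that protect chloroplast membranes during freezing. COR15A had 6887 and 8417 CPM in polysomes, against 3540, 2943 and 2442 CPM in mRNA, a log2 ratio of 1.36 ± 0.31 (edgeR adjusted p = 0.0378). COR15B had 2968 and 3272 CPM in polysomes and 1499, 1452 and 1284 CPM in mRNA, a log2 ratio of 1.14 ± 0.27 (edgeR adjusted p = 0.0396). These neighbours are related copies, and how well reads tell them apart was not tested. The poor member was RCI2B, a small hydrophobic membrane protein, at 4.88 and 2.60 CPM in polysomes and 18.1, 16.9 and 12.6 CPM in mRNA (log2 ratio -2.08 ± 0.34).

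Several abundant COR genes did not pass the test. The dehydrin COR47 had 2637 and 6314 CPM in polysomes and 2401, 3990 and 1962 CPM in mRNA, and KIN2 had 3242 and 4368 CPM in polysomes and 2498, 2372 and 1544 CPM in mRNA. Their edgeR adjusted p-values were 0.378 and 0.157. ELIP1 and ELIP2, the early light-induced proteins of the thylakoid, had log2 ratios below 0, at -1.08 and -0.37 (edgeR adjusted p = 0.292 and 0.679). Both polysome libraries were above all mRNA libraries for 9 of the 21 members. The same count was not made over all genes tested, so no base share stands beside it. The summed level of the list was 25890 and 44020 CPM in cold polysome replicates 1 and 2, against 17130, 18910 and 13050 CPM in cold mRNA, and 17 of 21 members were higher in polysome replicate 2. The median was 1.20 without polysome replicate 1 and 0.27 without polysome replicate 2. Leaving out any 1 mRNA library left 1 rich member, and without mRNA replicate 3 there were 2 poor members.

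Nuclear genes for photosynthesis had medians above 0 with few calls by edgeR in cold, and higher medians with more calls in untreated seedlings. Of 36 nuclear genes for thylakoid proteins, the antenna and subunits of the photosystems and of the ATP synthase, 1 was rich and none was poor. The rich share was 2.78%, against 1.22% of all genes tested, and the median log2 ratio was 0.80. That gene was ATPD, the delta subunit of the chloroplast ATP synthase, with 896 and 953 CPM in polysomes and 458, 425 and 543 CPM in mRNA (log2 ratio 0.96 ± 0.24, edgeR adjusted p = 0.0499). PSAO, a subunit of photosystem I, had 919 and 1962 CPM in polysomes and 480, 493 and 788 CPM in mRNA, with a log2 ratio of 1.296 ± 0.371 that missed the threshold (edgeR adjusted p = 0.0726). The antenna gene CAB1 had the lowest ratio of the list, -0.29, at 10020 and 6331 CPM in polysomes and 8857, 7886 and 13200 CPM in mRNA. Both polysome libraries exceeded all mRNA libraries for 20 of the 36 genes, a count that was not made over all genes tested. Of the 36 ratios 33 were above 0. In untreated seedlings 33 of the 36 were rich and none was poor, with a median of 1.27. In cold, DESeq2 called 14 of the 36 rich, where it called 3.76% of all genes tested rich. The cold median was 1.06 without polysome replicate 1 and 0.43 without polysome replicate 2. None was called in cold without mRNA replicate 1 or 2, or with library totals in place of TMM.

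None of the 18 Calvin cycle genes passed the test in cold, although 17 had a ratio above 0 and the median was 0.46. In untreated seedlings 9 were rich and 1 was poor, with a median of 0.79. In cold, 6 were higher and none lower at an unadjusted p below 0.05. DESeq2 also called 6 rich, where it called 3.76% of all genes tested rich. The cold median was 0.58 without polysome replicate 1 and 0.38 without polysome replicate 2. RBCS1A, a small subunit gene of Rubisco, had 22900 and 27690 CPM in polysomes and 9996, 10220 and 15420 CPM in mRNA, the highest level of the list (log2 ratio 1.09 ± 0.37, edgeR adjusted p = 0.110). The gene of lowest p was RPE, ribulose-phosphate epimerase, with 638 and 1082 CPM in polysomes and 393, 369 and 485 CPM in mRNA (edgeR adjusted p = 0.0654). RBCS genes are near-identical copies, so the values of single members are uncertain. Both polysome libraries stood above all mRNA libraries for 14 of the 18 genes, again with no count over all genes tested to set beside it.

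Among genes of sugar, starch and proline metabolism, 1 of 22 was rich and 1 was poor (4.55% each). Over all genes tested 1.22% were rich and 4.88% poor. SEX4, a phosphatase that removes phosphate from starch during its breakdown, had 70.1 and 105 CPM in polysomes and 47.0, 34.5 and 34.9 CPM in mRNA (log2 ratio 1.16 ± 0.25, edgeR adjusted p = 0.0294). DPE2, which processes maltose in the cytosol, had 60.9 and 49.9 CPM in polysomes and 118, 103 and 95.2 CPM in mRNA (log2 ratio -0.93 ± 0.21, edgeR adjusted p = 0.0381). The call for SEX4 was lost without mRNA replicate 2 or 3 or polysome replicate 2, and that for DPE2 without any 1 library but polysome replicate 1. The median log2 ratio of the list was 0.50, and it was 0.83 without polysome replicate 1 and 0.12 without polysome replicate 2. GolS3, a galactinol synthase of the raffinose pathway, had 179 and 834 CPM in polysomes and 134, 203 and 90.54 CPM in mRNA, so that polysome replicate 1 lay within the range of the mRNA libraries (edgeR adjusted p = 0.159). P5CS1, the enzyme that sets the rate of proline synthesis, had 234 and 442 CPM in polysomes and 141, 167 and 205 CPM in mRNA (edgeR adjusted p = 0.0887). Of 40 proteasome subunits 3 were rich (7.5%). Among them was PAE2, a subunit of the 20S core, at 84.2 and 82.2 CPM in polysomes and 47.3, 46.8 and 38.8 CPM in mRNA. No proteasome subunit was called without any 1 mRNA library, without polysome replicate 2 or with library totals. HIS1-3, a drought-induced linker histone, was 1 of 2 rich genes among 39 histones (5.13%). It had 6.13 and 9.42 CPM in polysomes and 0.712, 2.34 and 0.719 CPM in mRNA (log2 ratio 2.47 ± 0.51, edgeR adjusted p = 0.0273). Its call was lost without mRNA replicate 1 or 3 or polysome replicate 2.

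The 84 cytosolic ribosomal protein genes divided the 2 polysome libraries. Every one of them was higher in polysome replicate 1 than in replicate 2, and their summed level was 45540 and 24490 CPM in those libraries, against 30310, 27760 and 28930 CPM in mRNA. No member passed edgeR's test in either direction, and the median log2 ratio was 0.25. At an unadjusted p below 0.05, 7 were higher and none lower, and DESeq2 called 1 rich. Leaving out polysome replicate 1 turned the median to -0.29, and leaving out polysome replicate 2 gave 0.65. No direction can therefore be given for this class. STV1, a large-subunit protein of the L24 family, had the lowest p, at 744 and 444 CPM in polysomes and 318, 303 and 322 CPM in mRNA (log2 ratio 0.92 ± 0.27, edgeR adjusted p = 0.0768).

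Genes for ribosome biogenesis showed the same split, with all 23 higher in polysome replicate 1. Their summed level was 4318 and 2058 CPM in polysomes, against 4013, 3643 and 3450 CPM in mRNA, and the median log2 ratio of -0.04 became -0.56 without polysome replicate 1 and 0.33 without polysome replicate 2. There was 1 poor member (4.35%, against 4.88% of all genes tested), EDA25, a nucleolar protein annotated as CCAAT-binding factor. It had 58.5 and 23.4 CPM in polysomes and 128, 107 and 130 CPM in mRNA (log2 ratio -1.56 ± 0.37, edgeR adjusted p = 0.0431). Its call was lost without any 1 library but polysome replicate 1. Poor members numbered 6 without polysome replicate 1 and 0 in each of the other 4 fits that left out a library. Of 21 translation factors 20 were higher in polysome replicate 1. None was called by edgeR or DESeq2, with 1 higher and 1 lower at an unadjusted p below 0.05. EIF4E, which binds the mRNA cap, had 127 and 95.5 CPM in polysomes and 86.4, 77.5 and 58.2 CPM in mRNA (edgeR adjusted p = 0.175).

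**Figure D3:**
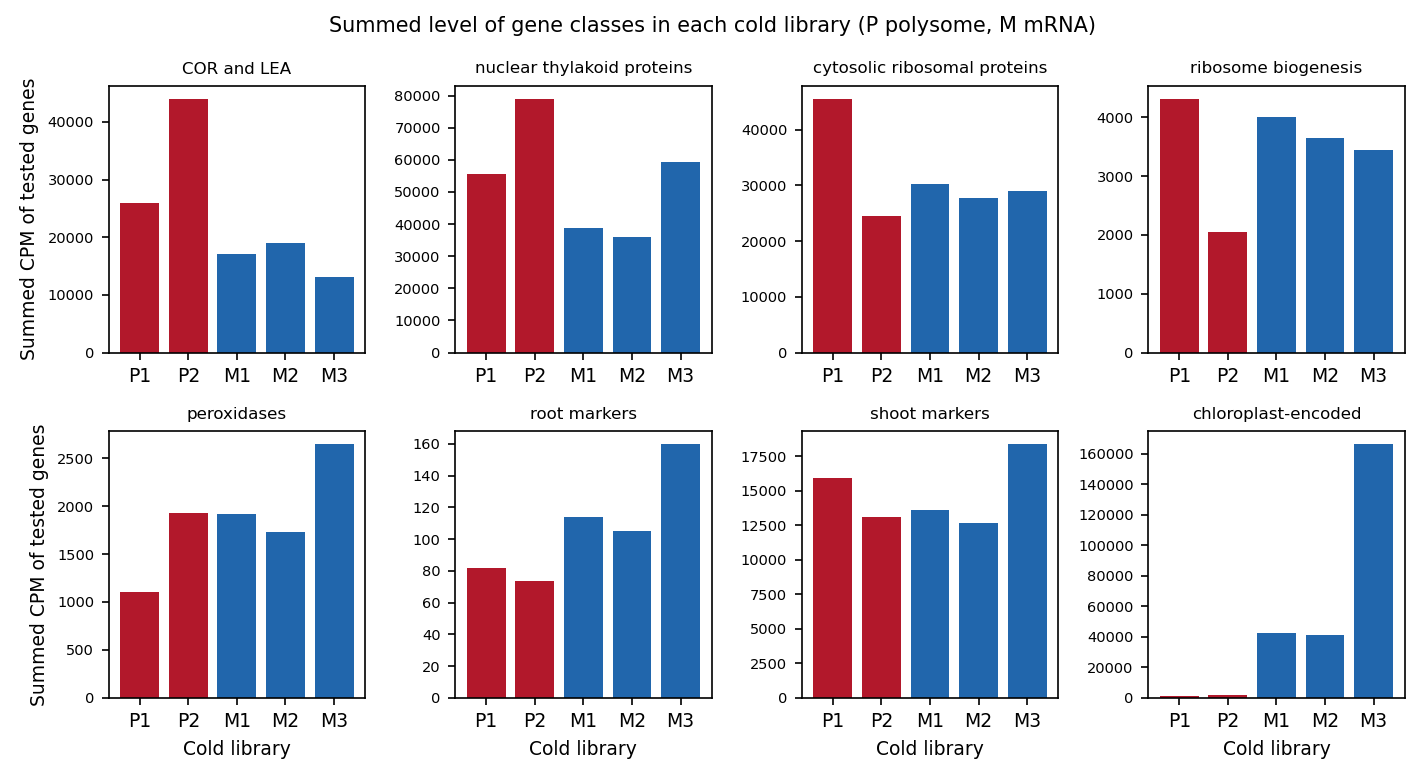
Summed CPM of all members of 8 classes, tested or not, in each cold library. The 2 polysome libraries (P1, P2) stand left of the 3 mRNA libraries (M1, M2, M3), with an axis from 0 for each class. The axis title names tested genes, but the sums include untested members. Ribosomal protein and ribosome biogenesis genes stand higher in P1 than in P2 (45540 and 24490 CPM for ribosomal proteins), COR and LEA genes the other way, and chloroplast-encoded genes are near 0 in both polysome libraries.

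Class III peroxidases and cell wall proteins stood on the poor side, in cold and in untreated seedlings alike. Of 52 tested peroxidases 21 were poor (40.4%, against 4.88% of all genes tested) and none was rich, with a median log2 ratio of -1.22. The poorest of the more abundant members was AT4G26010, at 0.805 and 1.299 CPM in polysomes and 18.5, 16.1 and 41.7 CPM in mRNA (log2 ratio -4.58 ± 0.54, edgeR adjusted p = 0.00358). Its call was lost without polysome replicate 2 (edgeR adjusted p = 0.0528). With 1 library left out, 15 to 25 peroxidases were poor. Of 241 cell wall proteins (extensins, expansins, pectin and xyloglucan enzymes and arabinogalactan proteins) 36 were poor (14.9%) and 1 was rich, with a median of -0.55. The poorest was the extensin-like AT4G08400, at 0.403 and 0.244 CPM in polysomes and 7.74, 10.7 and 39.2 CPM in mRNA, and its call was lost without either polysome library (edgeR adjusted p up to 0.251). The rich gene was PME1, a pectin methylesterase inhibitor, at 69.4 and 62.4 CPM in polysomes and 33.8, 31.2 and 41.3 CPM in mRNA, a call that held only without mRNA replicate 3 among the libraries left out. The cell wall median was -0.58 without polysome replicate 1 and -0.62 without polysome replicate 2. The count of poor cell wall genes was 16 without polysome replicate 2 and 20 without mRNA replicate 2. In untreated seedlings 28 of 56 peroxidases (50%) and 71 of 259 cell wall proteins (27.4%) were poor, where 14% of all genes were. Rich members there numbered 2 and 16, and the medians were -1.21 and -0.59.

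Membrane transporters and receptors are given beside the 4.88% of all genes that were poor, with no test of the difference. Among 63 ABC transporters 14 were poor (22.2%) and none was rich, with a median log2 ratio of -0.55. ABCG20, a half-size transporter needed for suberin barriers, had 0.716 and 1.54 CPM in polysomes and 8.45, 5.99 and 14.0 CPM in mRNA (log2 ratio -3.06 ± 0.51). Among 25 aquaporins 6 were poor, led by NIP5;1, the boric acid channel of root cells, at 4.11 and 2.92 CPM in polysomes and 21.5, 16.9 and 28.4 CPM in mRNA (log2 ratio -2.62 ± 0.32, edgeR adjusted p = 0.00304). Among 269 receptor-like kinases 22 were poor (8.18%) and 1, CRK21, was rich, and the call for CRK21 was lost whichever library was left out. The poor ones numbered 6, 6 and 10 without mRNA replicates 1, 2 and 3, and 5 without polysome replicate 2, while the share of poor genes among all genes also fell in those fits. NB-LRR proteins, the intracellular immune receptors, had 6 poor genes of 101 (5.94%), none without mRNA replicate 1 or 2 or polysome replicate 2, and 3 without mRNA replicate 3. The aquaporin count was 3 without mRNA replicate 1 or 2 or polysome replicate 2, and the ABC transporter count was 9 without mRNA replicate 1. In untreated seedlings the poor shares were 39.7% of ABC transporters, 26.9% of aquaporins, 13.1% of receptor-like kinases and 21.7% of NB-LRR proteins. There, 14% of all genes were poor.

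Markers of root cell types are given beside these classes. Of 11 tested markers of root cell types 2 were poor (18.2%, against 4.88% of all genes tested) and none was rich. Their median log2 ratio was -1.61. CASP1, which builds the Casparian strip of the root endodermis, had 1.61 and 1.06 CPM in polysomes, against 14.7, 12.4 and 11.1 CPM in mRNA (log2 ratio -3.23 ± 0.34, edgeR adjusted p = 0.00165). SHV2, a protein of growing root hairs also called COBL9, had 0.492 and 0.893 CPM in polysomes and 4.98, 3.38 and 10.06 CPM in mRNA (log2 ratio -3.09 ± 0.59). GL2, a homeodomain factor of the root epidermis and of leaf hairs, lay on the other side, with 2.33 and 4.46 CPM in polysomes and 2.05, 1.39 and 1.08 CPM in mRNA (log2 ratio 1.07 ± 0.47, edgeR adjusted p = 0.200). SCR and SHR, transcription factors of the root ground tissue that the shoot also expresses, had log2 ratios of 0.03 and -0.07. The summed level of all 13 listed root markers was 81.7 and 73.9 CPM in polysomes, against 114, 105 and 160 CPM in mRNA. That sum includes SMB and WOX5, which were too low to test. None of 9 tested shoot markers was called by edgeR or DESeq2, with 1 lower at an unadjusted p below 0.05 and a median of 0.17. The summed level of all 10 listed shoot markers was 15920 and 13110 CPM in polysomes, against 13600, 12670 and 18380 CPM in mRNA. The antenna gene CAB1 made up a large part of that sum. CAB1, RCA and GAPB are also members of the thylakoid and Calvin cycle lists. In such bulk samples, fewer cells of a type and less RNA per cell cannot be told apart, and the part of root tissue in the poor peroxidase, cell wall and transporter genes was not tested.

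Flavonoid genes lay below 0 almost throughout, yet only PAL1 passed (5.56% of those tested, where 4.88% of all genes were poor). PAL1, phenylalanine ammonia lyase at the entry to the pathway, had 262 and 158 CPM in polysomes, against 744, 464 and 485 CPM in mRNA (log2 ratio -1.42 ± 0.33, edgeR adjusted p = 0.0390). The median of 18 tested genes was -0.93, and 17 had a ratio below 0. TT4, chalcone synthase, had 954 and 548 CPM in polysomes and 1491, 953 and 1824 CPM in mRNA, where the groups overlapped by a narrow margin (edgeR adjusted p = 0.168). No flavonoid gene was called when polysome replicate 2 or any 1 mRNA library was left out. Without polysome replicate 1, 5 were called, where 6.39% of all genes tested were poor.

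Genes with a conserved peptide uORF were poor in 4 of 21 cases (19%, against 4.88% of all genes, a difference that was not tested) and rich in none. The 4 were all transcription factors. HSF4 (AT4G36990, also called HSFB1), a heat shock factor, had 17.3 and 9.34 CPM in polysomes and 38.4, 36.4 and 46.0 CPM in mRNA (log2 ratio -1.58 ± 0.29, edgeR adjusted p = 0.0201). bZIP44 had 15.6 and 11.9 CPM in polysomes and 30.3, 28.8 and 24.8 CPM in mRNA, and bZIP2 had 82.0 and 50.3 CPM in polysomes and 147, 205 and 120 CPM in mRNA. Both belong to the S1 group of bZIP factors, whose uORF represses translation when sucrose is high. HB-1, a homeodomain factor, had 30.8 and 32.6 CPM in polysomes and 49.8, 63.6 and 75.1 CPM in mRNA. Their log2 ratios were -1.03, -1.25 and -0.98. SAMDC, the polyamine enzyme with a well-studied uORF, had a log2 ratio of -0.51 that did not pass (edgeR adjusted p = 0.284), and SAC51 had 0.19. The number of poor members was 1 without any 1 mRNA library and 0 without polysome replicate 2, in fits where the share of poor genes among all genes was 1.59% to 3.51%.

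Organelle transcripts were almost absent from the polysome libraries. Of 92 tested chloroplast-encoded genes 81 were poor and none was rich, with a median log2 ratio of -6.06. The summed level of all 133 chloroplast-encoded genes, tested or not, was 1458 and 1833 CPM in polysomes, against 42590, 41490 and 166400 CPM in mRNA. Of 39 tested mitochondria-encoded genes 28 were poor. The summed level of all 152 mitochondria-encoded genes was 58.0 and 30.04 CPM in polysomes, against 17700, 15030 and 94440 CPM in mRNA. With either polysome library left out the poor genes numbered 49 and 38 for the chloroplast and 4 and 1 for the mitochondrion, and without mRNA replicate 3 they numbered 90 and 33. AT2G07687, a nuclear locus annotated as cytochrome c oxidase subunit III, had 0.447 and 0.406 CPM in polysomes and 8.99, 5.21 and 27.3 CPM in mRNA. Its reads may belong to the mitochondrial gene of the same name, and its call was lost without either polysome library. With genes that had no count in either polysome library set to a floor of 3 counts, the chloroplast median was -5.86 and the mitochondrial median -5.22.

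Non-coding RNAs were poor as well. Of 27 snoRNAs, which guide modification of ribosomal RNA in the nucleolus, 17 were poor and none was rich, with a median log2 ratio of -3.75. Of 175 long non-coding RNAs 25 were poor and 1 was rich, with a median of -1.10 and an interquartile range from -1.57 to -0.60. The summed level of all 3480 annotated long non-coding RNAs, tested or not, was 486 and 292 CPM in polysomes, against 956, 876 and 2603 CPM in mRNA. The number of poor long non-coding RNAs was 42 without polysome replicate 1 and 9 without polysome replicate 2, and that of snoRNAs 17 and 7. Without mRNA replicates 1 and 2 there were 14 and 11 poor long non-coding RNAs and 6 and 8 poor snoRNAs. Selection of poly(A) RNA differs between the 2 kinds of library by their labels, and its part in these ratios was not tested.

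**Figure D4:**
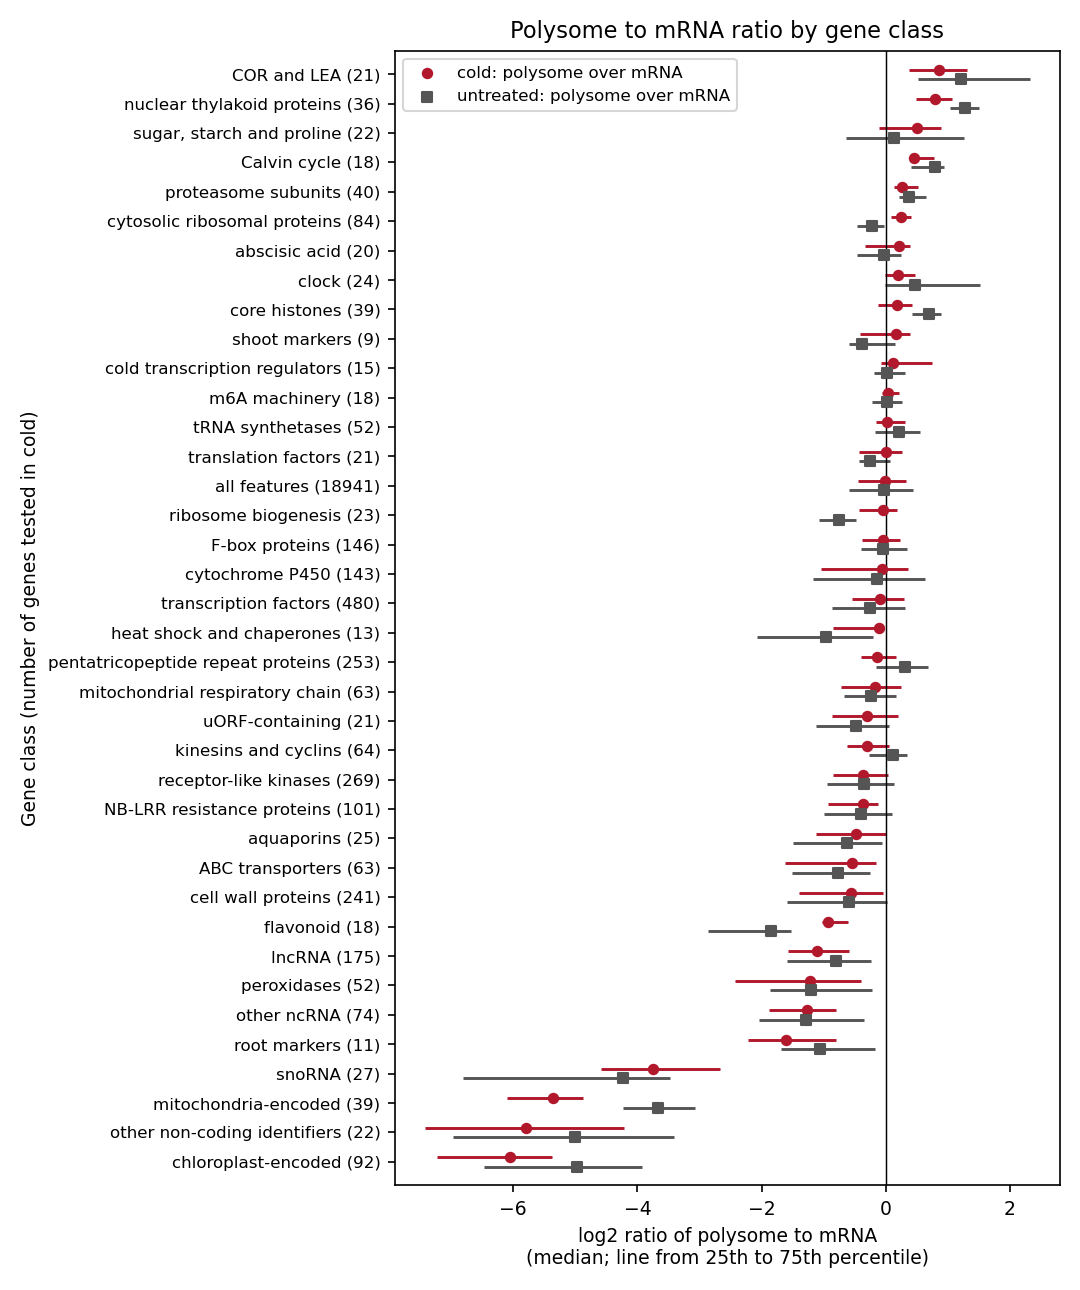
Median log2 ratio of polysome to mRNA per gene class (points) with the 25th to 75th percentile of genes (lines), in cold-treated seedlings (red circles) and untreated seedlings (grey squares), with the number of genes tested in cold in brackets. Classes run from COR and LEA genes at 0.86 to chloroplast-encoded genes at -6.06 in cold, and the median over all features is -0.01.

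Regulatory classes had few or no calls in cold. None of 24 clock genes, 18 genes of the m6A machinery, 15 cold transcription regulators, 52 tRNA synthetases or 13 heat shock and chaperone genes was called at an adjusted p of 0.05, and their medians lay between -0.11 and 0.21. At an unadjusted p below 0.05, 3 clock genes were higher and 1 lower, 1 m6A gene, 3 cold regulators and 1 chaperone gene were higher, and 4 tRNA synthetases were higher and 5 lower. DESeq2 called 1 clock gene poor, 2 tRNA synthetases rich and 1 poor, and no gene of the other 3 lists. MTA, the catalytic subunit of the m6A writer, had 51.9 and 52.5 CPM in polysomes and 38.7, 35.9 and 35.6 CPM in mRNA, so that both polysome libraries were above all mRNA libraries (log2 ratio 0.50 ± 0.19, edgeR adjusted p = 0.144). Among 480 transcription factors 14 were poor, led by TGA10 with a log2 ratio of -2.23, and none was rich. The poor share was 2.92%, against 4.88% of all genes tested. Their median log2 ratio of -0.10 was -0.11 without polysome replicate 1 and -0.10 without polysome replicate 2. Without mRNA replicates 1, 2 and 3, 5, 4 and 7 were poor, in fits where 2.3%, 2.17% and 3.51% of all genes tested were poor. Among 253 pentatricopeptide repeat proteins, which process organelle RNA, 2 were rich (0.791%, against 1.22% of all genes tested). None was poor, and the median was -0.13. Without polysome replicate 1 the median was -0.45 with 5 poor genes, and without polysome replicate 2 it was 0.11 with no gene called. Among 146 F-box proteins 1 was rich (0.685%) and 2 were poor (1.37%). There were 6 poor without polysome replicate 1, where 6.39% of all genes tested were poor, and none without polysome replicate 2, where 1.59% were. PYR1, an abscisic acid receptor, was the 1 poor gene of 20 in that pathway (5%). It had 21.5 and 15.7 CPM in polysomes and 38.6, 73.6 and 44.9 CPM in mRNA (log2 ratio -1.50 ± 0.32, edgeR adjusted p = 0.0295). Its call was lost without mRNA replicate 2 or 3 or polysome replicate 2.

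Most genes called in cold were also called in untreated seedlings, from libraries that the comparisons do not share. There, 2917 of 19689 genes were rich (14.8%) and 2756 were poor (14%). Of 229 cold rich genes that were tested in both conditions, 183 (79.9%) were also rich in untreated seedlings, which is 6.34% of the rich genes there. Of 908 cold poor genes, 704 (77.5%) were also poor in untreated seedlings, 27.5% of the poor genes there. In each direction 2 genes were called with the opposite sign.

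The ratio itself differed between cold and untreated seedlings for 57 of 20001 genes, 13 with a higher ratio in cold (0.065%) and 44 with a lower one (0.22%), by an edgeR test of the interaction over 10 libraries. CPM in this comparison are scaled over those 10 libraries. All 13 genes of the first kind were poor in untreated polysomes, with a median log2 ratio of 0.05 in cold and -2.27 in untreated seedlings. In cold 1 of them was rich and none was poor. These genes were chosen by the difference between the ratios, so the medians are not separate support for it. MIPS1, which makes myo-inositol phosphate, the precursor of galactinol and raffinose, had 779 and 1192 CPM in cold polysomes and 449, 425 and 381 CPM in cold mRNA. In untreated seedlings it had 184 and 286 CPM in polysomes and 668, 782 and 827 CPM in mRNA. AO, L-aspartate oxidase of NAD synthesis, had 57.6 and 99.2 CPM in cold polysomes and 58.9, 74.4 and 60.1 CPM in cold mRNA, against 4.77 and 10.3 CPM in untreated polysomes and 39.6, 42.5 and 51.9 CPM in untreated mRNA. The differences in log2 ratio were 2.93 ± 0.36 for MIPS1 and 2.84 ± 0.45 for AO (edgeR adjusted p = 0.0139 and 0.0351). The call for MIPS1 was lost without untreated mRNA replicate 2 or untreated polysome replicate 1, and the call for AO without any 1 library other than untreated mRNA replicate 1 or untreated polysome replicate 2.

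All 44 genes with a lower ratio in cold were rich in untreated polysomes, with a median log2 ratio of 0.28 in cold and 3.19 in untreated seedlings. In cold 4 of them were rich and 1 was poor. They too were chosen by the difference, so high untreated ratios are in part a result of the choice. PRR5, a pseudo-response regulator of the circadian clock that is expressed late in the day, had 207 and 279 CPM in cold polysomes and 162, 166 and 172 CPM in cold mRNA. In untreated seedlings it had 176 and 45.9 CPM in polysomes but 0.620, 0.817 and 2.04 CPM in mRNA. RbcX1, a chaperone of Rubisco assembly, had 93.6 and 94.0 CPM in cold polysomes and 53.0, 53.8 and 66.6 CPM in cold mRNA, against 129 and 44.0 CPM in untreated polysomes and 0.723, 0.408 and 1.02 CPM in untreated mRNA. For COR15B the log2 ratio was 1.14 in cold and 5.21 in untreated seedlings, where mRNA held 6.10, 5.80 and 7.08 CPM. The call for PRR5 was lost without any 1 cold library or untreated mRNA replicate 2, and that for RbcX1 without cold polysome replicate 1.

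Values of clock genes are given beside this comparison. In the interaction, 1 of 24 clock genes, PRR5, was called, and 13 had a lower and 11 a higher ratio in cold than in untreated seedlings. Of the clock genes tested, 1 of 24 had a ratio at least 2-fold from 1 in cold, RVE8 at -1.21, against 14 of 23 in untreated seedlings. There the dawn genes LHY and CCA1 had log2 ratios of -3.93 and -1.47, and FKF1, ELF4 and PRR3 had 6.42, 4.77 and 4.92. No source used here gives the time of day at which each library was collected, and its part in the difference between cold and untreated ratios was not tested. The numbers of genes with a higher and a lower ratio were 0 and 13 without untreated polysome replicate 1, 22 and 115 without untreated polysome replicate 2, 3 and 1 without cold polysome replicate 1 and 21 and 25 without cold polysome replicate 2. They were 1 and 7 without untreated mRNA replicate 2, and 7 and 24, 3 and 13, and 5 and 15 without cold mRNA replicates 1, 2 and 3. Flavonoid genes had a median log2 ratio of -0.93 in cold and -1.84 in untreated seedlings, with 1 gene called in the interaction. The flavonoid gene was 4CL3, a 4-coumarate:CoA ligase, with a log2 ratio of -1.04 in cold and -3.62 in untreated seedlings.

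**Figure D5:**
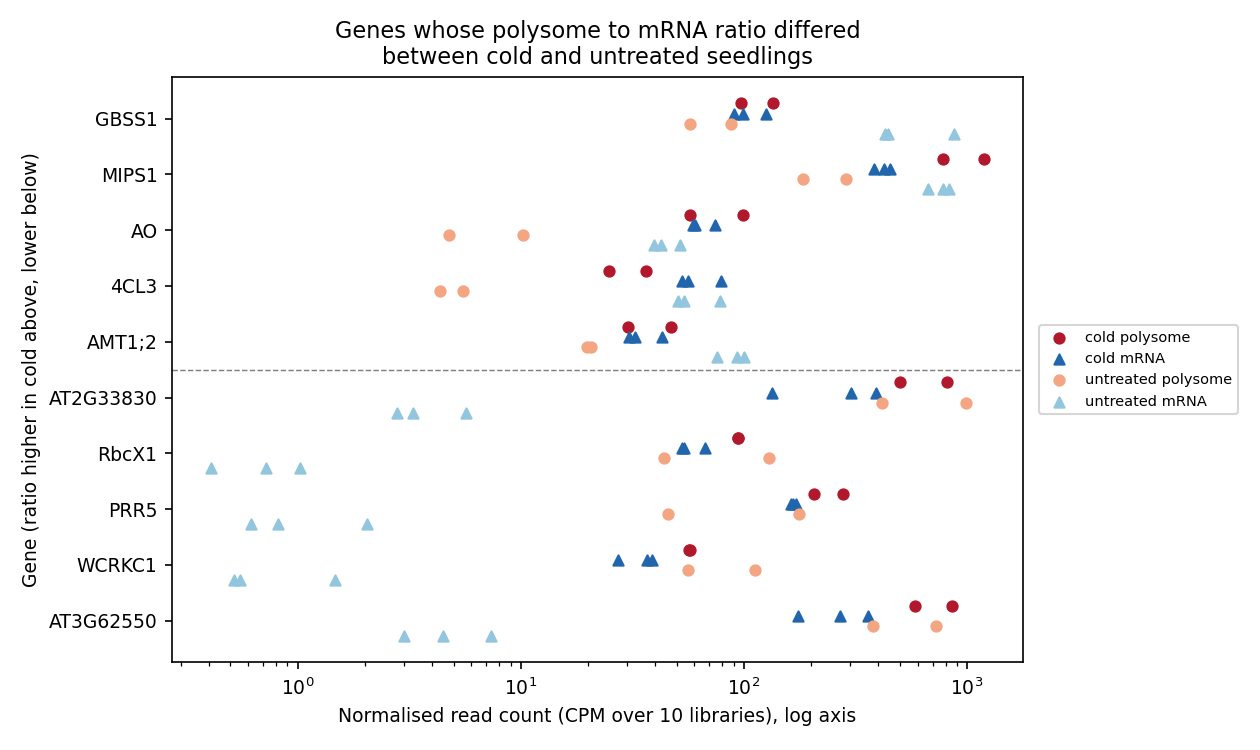
Normalised read count (CPM scaled over 10 libraries, log axis) of the 5 genes with the largest rise and the 5 with the largest drop in polysome to mRNA ratio between cold and untreated seedlings, in each of the 10 libraries. For the lower 5 genes, PRR5 among them, untreated polysomes lie at 44.0 CPM or more, against at most 7.34 CPM in untreated mRNA.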

How the data were processed

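Polysomal RNA and mRNA of cold-treated and untreated seedlings were sequenced, and the authors deposited raw read counts per gene for each library. Per the submitters' processing notes STAR, HTSeq and the TAIR10 build were used, with versions and strand setting not given in the sources used here. Without a known strand setting, overlapping and antisense genes cannot be told apart. Summary lines of the counter were removed. Counts of 10 libraries were used here, and the m6A immunoprecipitation libraries were not used. Gene names, classes and start contexts came from RefSeq TAIR10.1, to which 32548 of 34262 features were matched. Genes with low counts were removed with filterByExpr, libraries were scaled with TMM, and edgeR 4.0.16 (R 4.3.3) fitted quasi-likelihood models and p-values were adjusted by Benjamini-Hochberg over every gene in the fit. The cold comparison used its 5 libraries, and the difference between conditions used an interaction over 10 libraries. The procedure was tested on simulated data. Totals ranged from 3282574 to 22200225 counts per library.

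Named genes were the 8 highest and 8 lowest log2 ratios among called genes that averaged 4 or more in log2 CPM and showed no overlap between groups, the 5 largest interactions in each direction, and in each list the most extreme called member in each direction that averaged 2 or more in log2 CPM, or otherwise the gene of lowest p. Further list members were chosen after their values were seen. The comparison, members and lists were chosen with earlier results of these data known, and some class patterns were corrected on product names after a first look, to remove false matches. Alternatives were DESeq2 1.42.0, its size factors, library totals, no filter, nuclear genes only, all 10 libraries, a replicate block and leaving out each library.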

Additional observations from a re-analysis of the deposited data

Results flagged for a closer look

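The polysome to mRNA ratio differed between cold and untreated seedlings, by a test of the difference itself, for 10 named genes. These are the genes with the largest differences among those called by edgeR's quasi-likelihood test that averaged 4 or more in log2 CPM. The ratio was higher in cold for the starch synthase GBSS1 by 3.149 on the log2 scale, for MIPS1 by 2.928, for AO by 2.843, for 4CL3 by 2.589 and for the ammonium transporter AMT1;2 by 2.29. The ratio was lower in cold for AT2G33830, with a difference of -6.243, for RbcX1 with -6.182, for PRR5 with -5.985, for the thioredoxin-like WCRKC1 with -5.858 and for AT3G62550 with -5.387. GBSS1 had 97.1 and 136 CPM in cold polysomes and 125, 98.7 and 90.6 CPM in cold mRNA, against 57.4 and 87.8 CPM in untreated polysomes and 426, 442 and 876 CPM in untreated mRNA. AT2G33830 had 498 and 810 CPM in cold polysomes and 134, 302 and 389 CPM in cold mRNA, against 991 and 415 CPM in untreated polysomes and 5.68, 2.78 and 3.30 CPM in untreated mRNA. Each of the 10 calls was lost when at least 1 library was left out, with adjusted p up to 0.165 for GBSS1 and 0.0515 for WCRKC1.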

How the results depend on the processing

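The 232 rich and 924 poor genes became 712 and 1453 with DESeq2, 828 and 1462 with the spread estimated from all 10 libraries, 56 and 949 with library totals, and 464 and 1115 without the filter on low counts. All 232 and all 924 were among the genes DESeq2 called. With 1 library left out, rich genes numbered 11 to 815 and poor genes 310 to 1249. The 13 genes with a higher and the 44 with a lower ratio in cold became 196 and 320 with DESeq2 and 8 and 27 with library totals, and 0 to 22 and 1 to 115 with 1 library left out. Library totals shifted the median interaction by 0.18 on the log2 scale, over genes at or above an average log2 CPM of 1. Deviations of cold polysome replicate 1 correlated with those of cold mRNA replicates 1, 2 and 3 at r = 0.276, 0.0372 and -0.234. With 2 polysome libraries, the values for polysome replicate 2 are the same with the sign reversed. These correlations therefore cannot show whether the numbers are paired. No label ties the numbers to a shared batch, and the libraries were treated as unpaired. A fit with the replicate block, which leaves out the mRNA replicates 3 because no polysome library has that number, gave 221 rich and 990 poor genes, and 17 higher and 46 lower ratios, which shared 112, 769, 9 and 19 genes with the unblocked calls. RAB18, PAP17, AT5G17460, ATPD, SEX4, PAE2 and PYR1 were not called in that fit. Named genes kept their sign under the alternatives run. Over those alternatives, 592 values of named genes in cold kept their side of the threshold, 131 lost the call and 17 gained it. With 2 polysome libraries per condition, and 3282574 counts in cold mRNA replicate 3, a missed threshold does not show that a ratio is 1.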
